A study of Mus musculus with 3 samples.

Results

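The genes of de novo lipogenesis described here are Fasn, Acaca, Acacb, Acly, Scd1, Me1, Thrsp and Mlxipl, 8 of the 22367 protein-coding genes of the mouse annotation GENCODE M1. They are the enzymes of the pathway and 2 of its regulators, and the rule that lists them names genes and uses no measured value. The study mapped the binding of the nuclear receptors RXRα and RARα in the liver of male wild type C57BL/6 mice labelled as 3 months old. ChIP-seq gave 1 RXRα library, 1 input library as the background, and 1 RARα library made with the Santa Cruz antibody sc-551x. The labels give no genotype or treatment other than wild type, and the sources used here do not state how many livers went into a library. With 1 library per antibody there was no replicate check, so values are given as descriptions and no p-value is given.

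De novo lipogenesis makes fatty acids from carbohydrate in the cytosol of the liver cell. Citrate leaves the mitochondrion, is cleaved to acetyl-CoA, is carboxylated to malonyl-CoA and is then lengthened on fatty acid synthase with NADPH. The pathway is known for its control by insulin and glucose through SREBP-1c, the carbohydrate response factor ChREBP and the oxysterol receptor LXR. RXRα is the common partner with which LXR, PPARα, RAR and other nuclear receptors pair on DNA, usually on a direct repeat of a 6-base site, and RARα is a receptor for retinoic acid.

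The sequences below are from RXRα regions of the 8 genes. The first 3 hold the exact direct repeats, and the other 2 hold near DR1 repeats upstream of Acacb and Me1, shown as examples of the near repeats. Each is the reference sequence of NCBI37/mm9 on the strand of the gene, 5′ to 3′. Capitals mark the searched motif, on either strand. DR1 to DR5 are direct repeats of a receptor site with 1 to 5 bases between the copies. A copy of the site could be AGGTCA, the variant AGTTCA that is also in the Thrsp repeat, or either of these with a first base of G in place of A. The near repeats differ from a complete pair at 1 base and were looked for after the exact matches had been seen. The Acacb sequence also holds a near DR5, which shares a copy with the near DR1. The other copy of that DR5 is left in lower case.
Thrsp, DR4 and a further site, chr7:104572372-104572492: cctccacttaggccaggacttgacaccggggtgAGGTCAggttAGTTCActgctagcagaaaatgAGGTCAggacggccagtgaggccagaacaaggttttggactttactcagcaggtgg
Mlxipl, DR1, chr5:135585019-135585069: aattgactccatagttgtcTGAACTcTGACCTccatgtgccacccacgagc
Acly, DR3, chr11:100377253-100377303: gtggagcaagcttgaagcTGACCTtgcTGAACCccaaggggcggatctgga
Acacb, near DR1, chr5:114596153-114596203: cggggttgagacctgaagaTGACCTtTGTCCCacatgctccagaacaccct
Me1, near DR1, chr9:86590131-86590181: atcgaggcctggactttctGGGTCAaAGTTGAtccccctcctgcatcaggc

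The RXRα and input tracks give, for every 32 bp bin, how many extended reads cover it, and their totals came to 9999939 reads for RXRα and 9999292 for input. An RXRα region was a run of bins with at least 20 times the input, where the input of a bin was never taken below the genome mean of 0.603 reads. Each region is described by its highest-bin ratio and by the reads within 500 bp on each side of that bin, whose ratio is given with its interval in parentheses. Positions of regions are midpoints relative to the gene start, negative upstream. In 32 of the 53 regions of the 8 genes, gene bodies included, the bin of highest ratio held no input read, so that this ratio rests on the mean input and is no fold over input there. The RARα data are a list of 143280 peaks with scores from 5 to 382, of which the 32946 with a score above 20 were used as filtered peaks. The depth of the RARα library cannot be read from the list, and the list does not say whether its score is a fold over input. Within 10 kb of the start, all 10 hepatocyte markers, such as Alb, had an RXRα region as well as a filtered RARα peak. An RXRα region was found at 1 of 5 T and B cell markers, 0 of 3 muscle and heart markers and 0 of 3 neuron markers, and a filtered RARα peak at 2, 1 and 0 of them. Binding is not a transcript level, and fewer cells of a type cannot be told apart from less binding per cell.

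All 8 lipogenic genes had at least 1 RXRα region with its midpoint within 10 kb of the gene start, compared with 39.8% of all genes. A filtered RARα peak lay within 10 kb of Fasn, Acaca, Acly, Thrsp and Mlxipl, 5 of the 8 genes, and 52.2% of all genes had one. Co-localization of a filtered RARα peak with an RXRα region, taken as 25% or more of the narrower one being covered, was found at 4 of the 8 genes, Fasn, Acaca, Thrsp and Mlxipl. The share of all genes with such a pair was 23.5%. At Acacb, Scd1 and Me1 the highest RARα scores within 10 kb were 19, 13 and 12, so that these genes had RARα peaks only below the threshold. With the threshold lowered to a score above 10, all 8 genes had a RARα peak and a co-localized pair, when the shares of all genes were 62.9% and 29.7%. Without a threshold these shares were 67.3% and 31.2%. With the gene bodies counted at the threshold of 20, Acacb was added, giving 6 genes with a filtered RARα peak (57.9% of all genes), 8 with an RXRα region (47.9%) and 5 with a co-localized pair (27.2%).

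RXRα regions were spread unevenly over the 8 genes. Fasn, Thrsp and Mlxipl each had 5 or more regions within 10 kb, which 3.51% of all genes had, and a highest-bin ratio above 100, which 4.25% of all genes had. The bin behind this ratio held 0 input reads at Fasn and Thrsp and 1 at Mlxipl. At the other end, Acaca and Me1 had 1 region each, so that 6 of the 8 genes had 2 or more, compared with 20.9% of all genes. In a window of 1 kb, 7 of the 8 genes, all but Acly, had the midpoint of a region, compared with 21.6% of all genes. The nearest region of Acly had its midpoint at -1038 bp and its highest bin at -974 bp. A RARα score above 100 was found at Fasn, Acly and Mlxipl, 3 of the 8 genes, and at 4.86% of all genes.

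**Figure D1:**
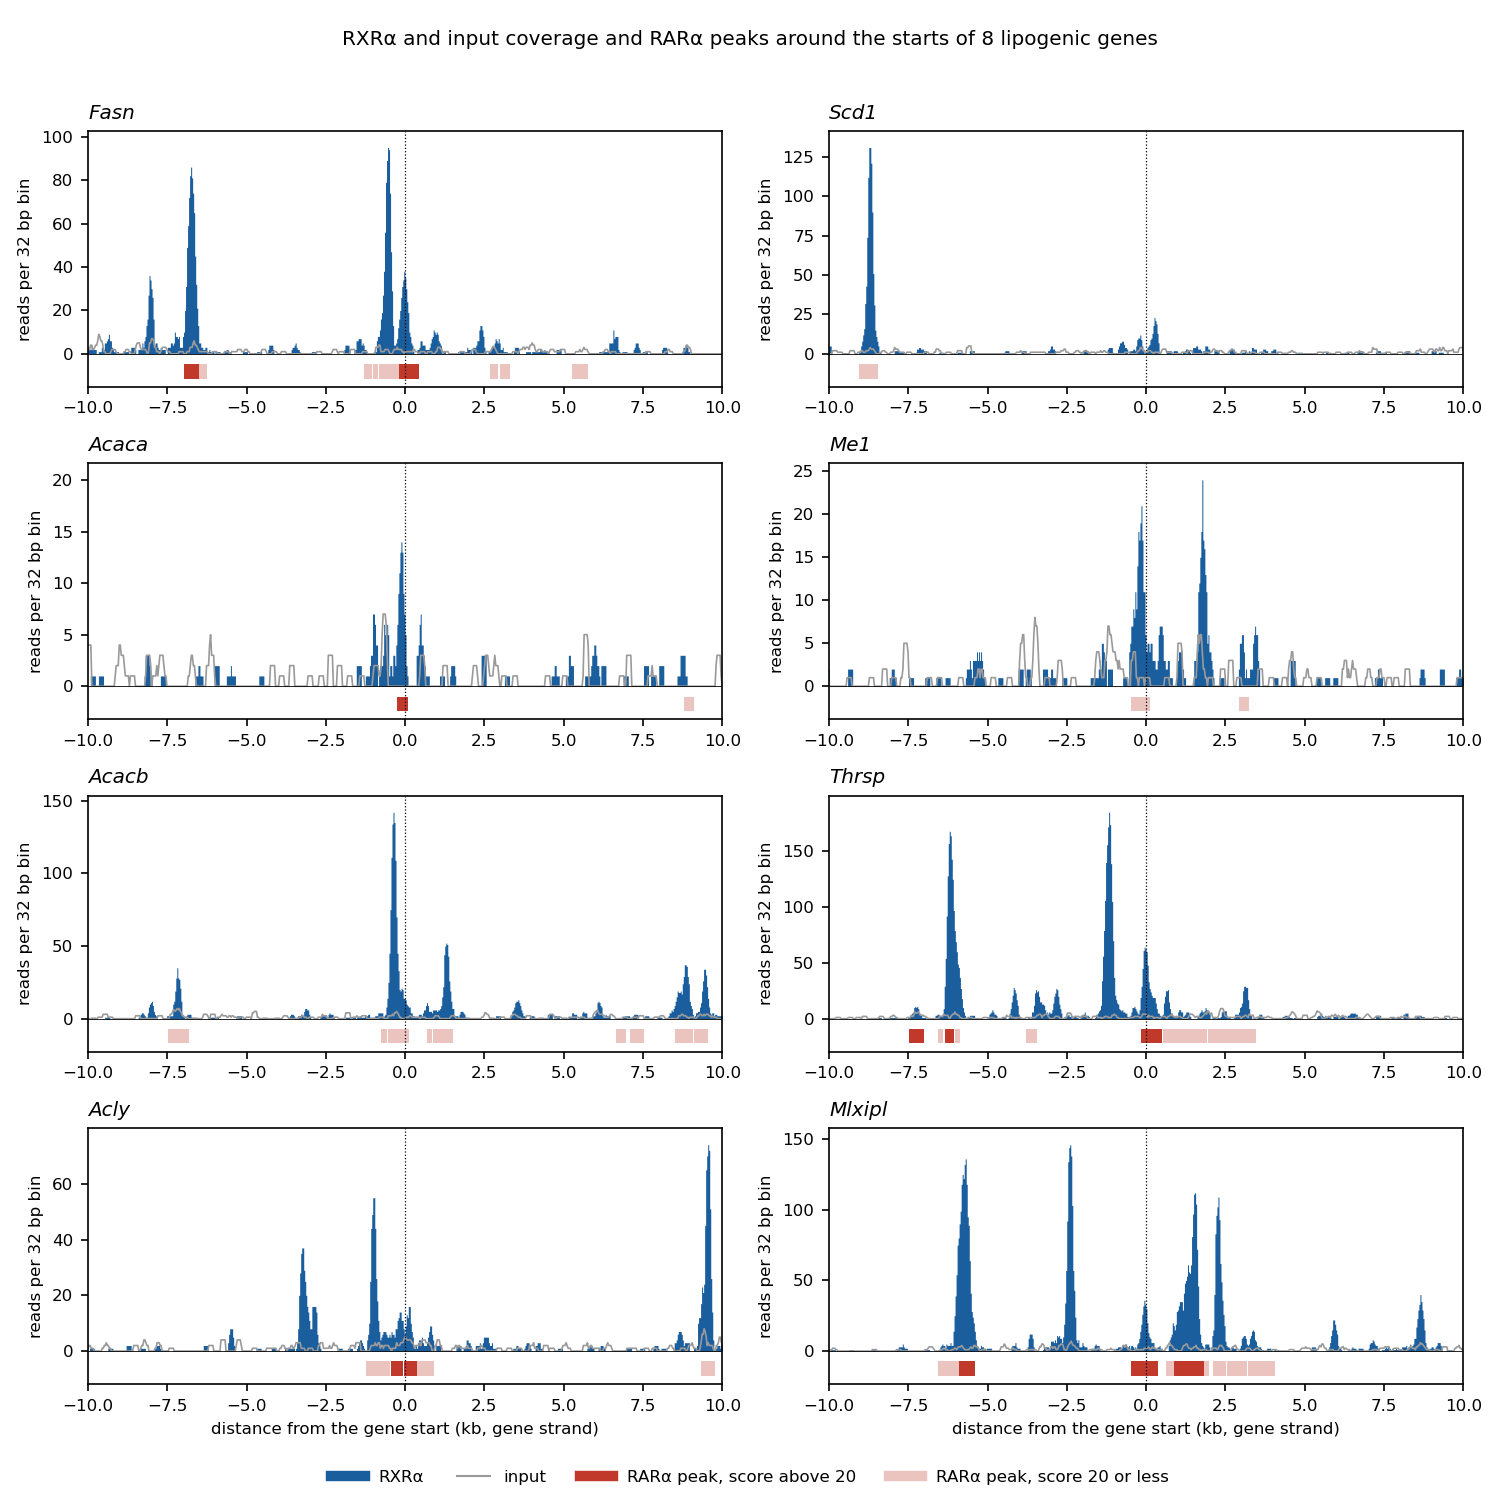
Reads covering each 32 bp bin (y axis, its scale differing between panels) within 10 kb of the start of the 8 genes, along the strand of the gene (x axis, kb). Blue is RXRα, grey the input, and the bars below are RARα peaks with a score above 20 (dark) or not (light). RXRα summits reach 185 reads at Thrsp and no more than 14 at the start of Acaca, and the highest summit of Scd1 lies at -8697 bp.

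RXRα was above input at all 8 gene starts. Within 1 kb on each side of the start, the mean RXRα signal was more than 2 times the input at each of the 8 genes and at 39.4% of all genes. Pooled over the 8 starts, 1064 reads of RXRα stood against 139 of input. The ratio was 7.64, and its exact Clopper-Pearson interval ran from 6.41 to 9.20. All such intervals are at the 95% level and cover counting error only. The median ratio of the 8 genes was 5.17, and the median of all genes was 1.36.

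In this window of 1 kb the order of the 8 starts ran from Acacb to Acaca, and neighbours in that order were not separated by their intervals. Acacb had a ratio of 18.7 (11.1 to 36.8), higher than at 99.9% of all genes, and Fasn one of 14.9 (9.06 to 27.7). Thrsp followed with 9.79 (6.24 to 16.6). Mlxipl with 5.27, Scd1 with 5.08, Me1 with 4.18, Acly with 3.76 and Acaca with 3.28 had intervals that overlapped each other. The intervals of Acacb and Fasn lay above those of Mlxipl, Me1, Acly and Acaca, and that of Acacb lay above that of Scd1 as well. Each of the 8 ratios exceeded the upper quartile of all genes, 3.10, although the intervals of Acaca, Acly, Me1 and Scd1 reached below it. Within 250 bp on each side the order was another, with Me1 at 15.4, Thrsp at 14.7, Fasn at 13.9, Acacb at 13.6, Mlxipl at 9.55, Acaca at 9.33, Scd1 at 4.67 and Acly at 3.18.

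**Figure D2:**
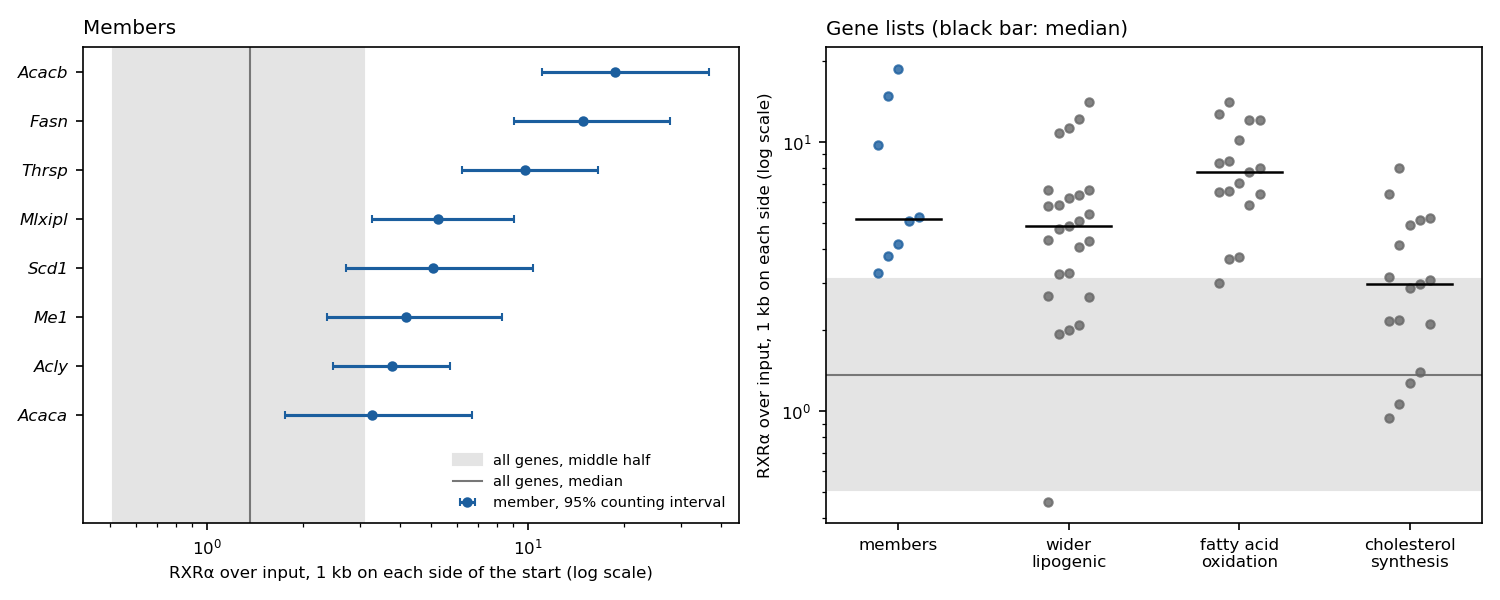
RXRα signal over input signal within 1 kb on each side of the gene start, on log axes. Left, the 8 genes with the counting interval at the 95% level. Right, 1 point per gene in the 8 genes and 3 other lists, with black bars at the medians of 5.17, 4.90, 7.77 and 2.98. Grey marks the middle 50% of all genes and their median of 1.36.

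Acly and Me1 supply the pathway with acetyl-CoA and NADPH. Acly, ATP citrate lyase, makes acetyl-CoA from citrate, and lies at chr11:100337667-100389314 on the minus strand. Its 2 filtered RARα peaks were at the start, with scores of 166 at 99 bp in an untranslated exon and of 67 at -221 bp. The score of 166 was higher than that of 99.5% of all filtered RARα peaks. RXRα over the width of these peaks was 2.28 and 4.67 times the input. The median over all filtered RARα peaks near gene starts was 4.53. Neither peak of Acly overlapped an RXRα region, and 33.1% of all filtered RARα peaks near gene starts co-localized with one. An RXRα summit of 16 reads at -14 bp was not called as a region, because the input had 4 reads in the same bin. The start of Acly also had more input than most starts, with 31 reads within 1 kb on each side, above the input at 97.5% of all genes.

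RXRα regions of Acly lay beside the RARα peaks and far into the gene. The region at -1038 bp had 87 RXRα against 10 input reads, a ratio of 8.70 (4.51 to 18.8), and a RARα peak with a score of 12. The region at -3038 bp had the largest highest-bin ratio within 10 kb, 41.5, with 79 RXRα and 9 input reads, and had no RARα peak of any score. Within the gene, the region at 37026 bp had 111 RXRα against 6 input reads, a ratio of 18.5 (8.23 to 51.5), again without a RARα peak. The DR3 printed above lay in the coding sequence, in a region at 12034 bp with 48 RXRα and 7 input reads.

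Me1, cytosolic malic enzyme, makes NADPH for the synthase. It lies at chr9:86474970-86589947 on the minus strand, and its start is 372 bp from that of A330041J22Rik on the other strand, so that the binding there cannot be assigned to either gene. Its only RXRα region within 10 kb, at -197 bp, had 47 RXRα against 8 input reads, a ratio of 5.87 (2.75 to 14.4). The near DR1 of Me1 was in this region at -209 bp, and the RARα peak over it had a score of 12. A narrower window of 250 bp on each side of the start gave 31 RXRα reads and 2 input reads, so the binding was close to the start. A second summit of 24 reads at 1787 bp was not called as a region, because the input had 4 reads in the same bin. Across the whole gene, RXRα was not above input, at a ratio of 0.739.

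The 2 acetyl-CoA carboxylases differed in RXRα within 1 kb of their starts, and not detectably within 250 bp. Acaca, the cytosolic enzyme that makes malonyl-CoA for synthesis, lies at chr11:83943174-84215153 on the plus strand. Acacb, the form on the mitochondrial outer membrane whose malonyl-CoA restrains fatty acid oxidation, lies at chr5:114596544-114700770, also on the plus strand. Within 1 kb on each side of the start there were 43 RXRα and 13 input reads at Acaca, and 251 RXRα and 13 input reads at Acacb. The intervals of the ratios, 1.75 to 6.70 and 11.1 to 36.8, did not overlap. Within 250 bp on each side, Acaca had 18 RXRα and 0 input reads, which puts its interval above 4.40, and Acacb had 49 and 4 reads with an interval from 4.49 to 46.7, so that the intervals overlapped.

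At the start of Acaca the RXRα region at -118 bp had a highest-bin ratio of 23.2, close to the threshold of 20, and rested on 14 RXRα reads in its highest bin. It co-localized with a RARα peak with a score of 26 at -64 bp. The start of Acaca is 72 bp from that of Tada2a, an adaptor of histone acetyltransferase complexes on the other strand, and this RARα summit was nearer to Tada2a. With only those peaks and regions counted whose nearest gene was the lipogenic gene, Acaca was lost. Then 7 genes had an RXRα region (34.1% of all genes), 4 a RARα peak (45.7%) and 3 a co-localized pair (18.8%).

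Most RXRα regions of Acaca lay inside the gene, some of them at later transcript starts. The gene and the 10 kb before it held 13 RXRα regions, of which 12 were farther than 10 kb from the gene start. A transcript start at 50139 bp had 60 RXRα reads and 4 input reads within 250 bp on each side, with an interval of the ratio from 5.56 to 56.8. The transcript start at 62399 bp had 50 and 6 reads, a ratio of 8.33 (3.57 to 23.8). By contrast, the starts at 43450 and 65766 bp had 7 and 9 RXRα reads against 4 and 6 input reads. Near the start at 50139 bp there were RARα peaks with scores of 42, 26 and 37, and the first 2 co-localized with the RXRα region at 50042 bp. The start of Gm11437 lies inside Acaca at 37804 bp, and it was the nearest gene of these peaks. The highest RARα score in Acaca, 68 at 39431 bp, and another of 54 at 12301 bp were in introns and overlapped no RXRα region. RXRα over the width of these peaks was 5.57 and 5.43 times the input. RXRα summits there, of 39 and 19 reads, were not called as regions, because the input had 4 and 3 reads in the same bins. These windows around transcript starts were chosen after the data had been seen.

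At Acacb the RXRα region just before the start, at -272 bp, had 226 RXRα against 9 input reads, a ratio of 25.1 (13.0 to 55.6). Its highest bin had 142 RXRα reads and lay 2 bp from the near DR1 of Acacb, at -366 bp. A near DR5 that overlaps this DR1 was centred at -375 bp. The RARα peak over the region had a score of 17, below the threshold. The region with the largest highest-bin ratio, 86.3, was in an intron at 1280 bp, with 89 RXRα and 4 input reads and a RARα score of 11. The 5 filtered RARα peaks of Acacb were all deeper in the gene. The highest, with a score of 46, lay at 26596 bp and co-localized with an RXRα region of 300 RXRα and 20 input reads, with an interval of the ratio from 9.54 to 24.9. Another, with a score of 39, had its summit at 29376 bp, 5 bp from a transcript start, and co-localized with a region of 45 RXRα and 8 input reads. Acacb therefore had 4 co-localized RARα peaks when the gene body was counted, and 0 within 10 kb of its start.

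**Figure D3:**
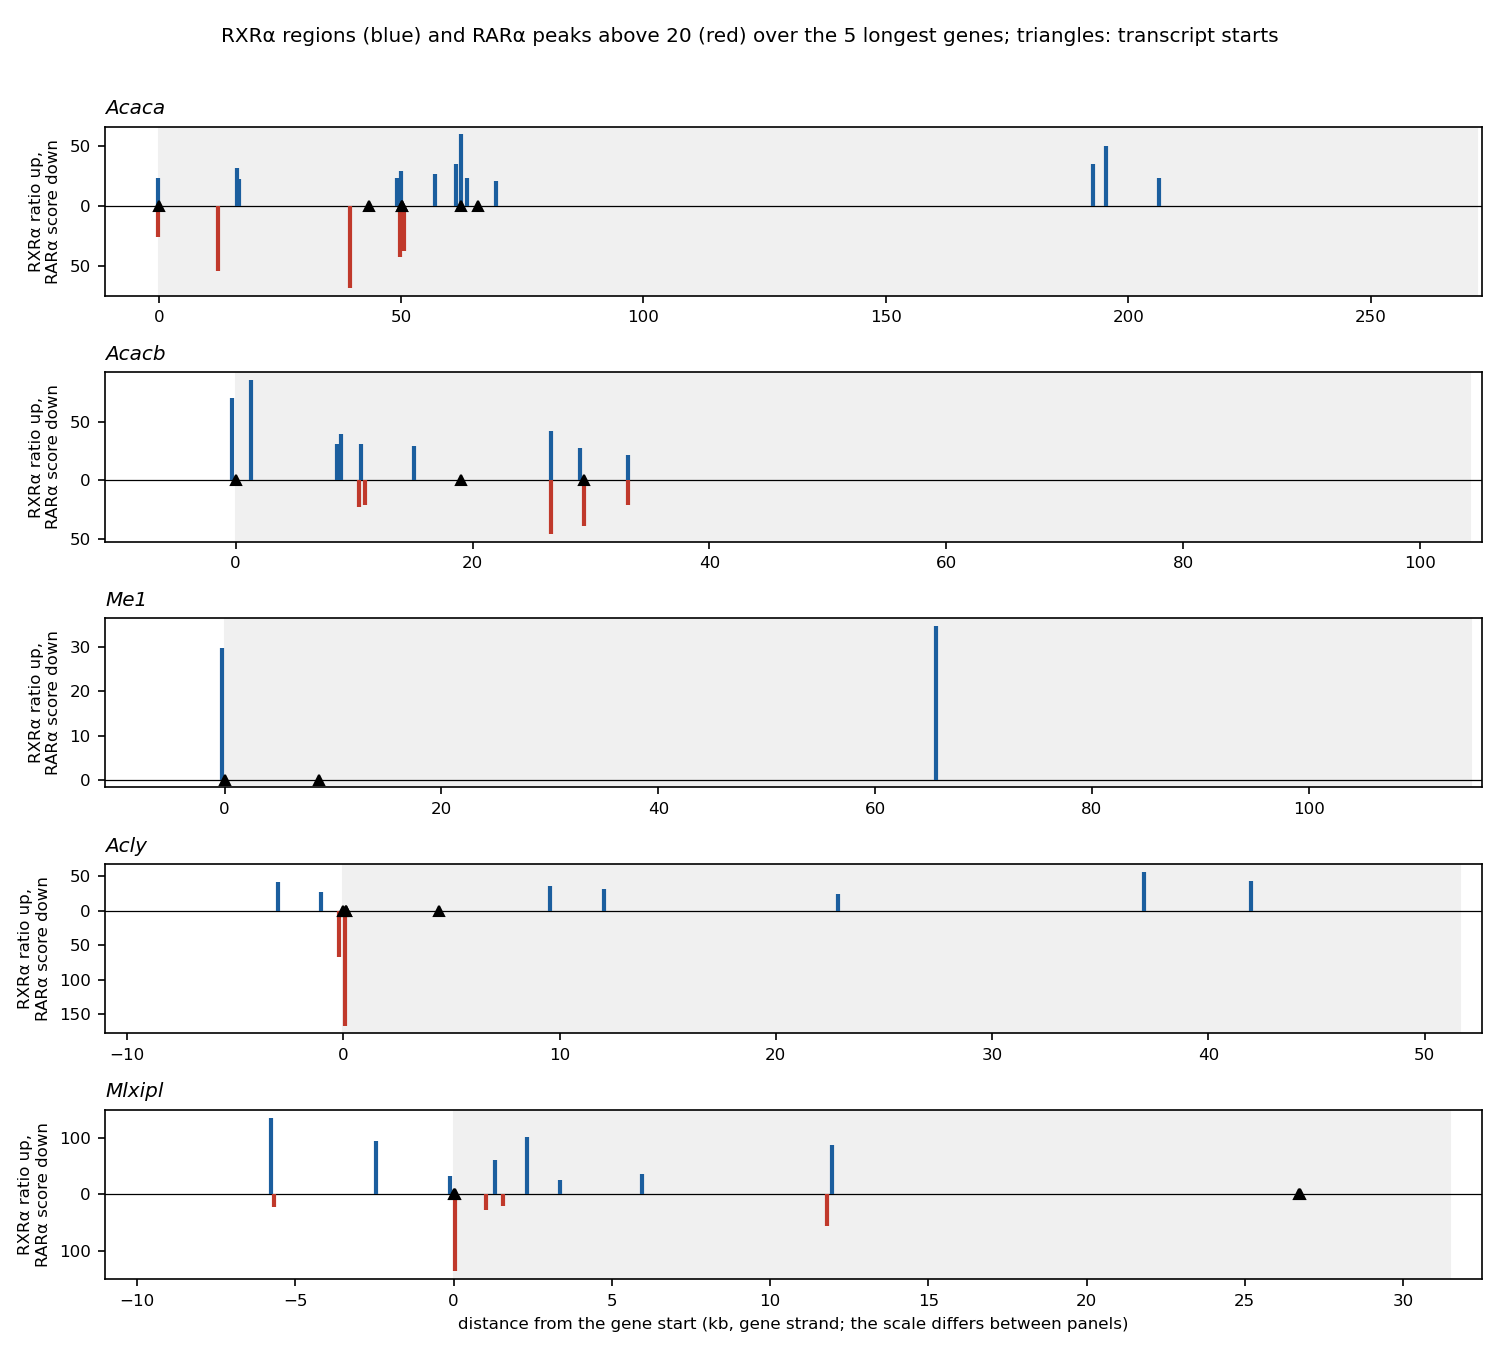
RXRα regions (blue, upward, highest ratio to input) and RARα peaks with a score above 20 (red, downward, score) over the 5 longest of the 8 genes. The x axis is the distance from the gene start in kb along the gene, grey marks the gene and triangles mark transcript starts. At Acaca, 12 of 13 regions lie beyond 10 kb, and at Acacb the 5 RARα peaks all lie beyond 10 kb, while the 2 RARα peaks of Acly sit at its start.

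Fasn, fatty acid synthase, builds palmitate from acetyl-CoA and malonyl-CoA. It lies at chr11:120667254-120685492 on the minus strand, and its RXRα regions lay mostly upstream. The region at -556 bp had the largest highest-bin ratio, 123, and 195 RXRα against 10 input reads, a ratio of 19.5 (10.4 to 41.3). The RARα peak over it had a score of only 13. Next to it, the region at -12 bp had 140 RXRα reads and 8 input reads in a window that overlaps the first, and co-localized with the RARα peak of highest score, 131 at 77 bp in an untranslated exon. RXRα over that peak was 13.4 times the input. Farther upstream, the region at -6828 bp had 166 RXRα against 10 input reads, a ratio of 16.6 (8.80 to 35.3), and co-localized with a RARα peak with a score of 22. The regions at -8108 bp and, in an intron, at 2388 bp had 54 and 27 RXRα reads and no RARα peak of any score.

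Scd1, stearoyl-CoA desaturase, makes oleate and palmitoleate from the saturated products. It lies at chr19:44468941-44482199 on the minus strand and had little RARα. The gene and its 10 kb surroundings held 4 RARα peaks, the highest with a score of 13. RXRα was concentrated far upstream, in a region at -8745 bp with 180 RXRα against 10 input reads, a ratio of 18.0 (9.56 to 38.2), and a summit of 131 reads. The peak with the score of 13 was over this region. At the start, the region at 263 bp in an untranslated exon had 44 RXRα and 11 input reads, with an interval of the ratio from 2.03 to 8.59, and no RARα peak. The interval of the region at -8745 bp lay above that of the region at 263 bp. It overlapped that of the start of Scd1 within 1 kb on each side, 2.71 to 10.4.

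Thrsp encodes Spot 14, a small protein that responds to thyroid hormone and promotes lipogenesis. It lies at chr7:104561448-104566240 on the minus strand, the shortest of the 8 genes, and had the largest highest-bin ratio among them. That region, at -6048 bp, had a highest-bin ratio of 279, larger than in 99.9% of all RXRα regions, from a bin without an input read. It held 319 RXRα against 12 input reads, a ratio of 26.6. It co-localized with a RARα peak with a score of 27, over which RXRα was 44.5 times the input. The DR4 printed above lay 19 bp from its highest bin.

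The region at -1216 bp of Thrsp had a similar number of reads, and no RARα peak of any score. It held 321 RXRα against 9 input reads, a ratio of 35.7 (18.6 to 78.7), and its interval overlapped that of the region at -6048 bp, which reached up to 52.0. At the start, the RARα peak of highest score, 66 at 235 bp in the coding sequence, co-localized with a region of 136 RXRα against 12 input reads, a ratio of 11.3 (6.28 to 22.5). A RARα peak with a score of 35 at -7340 bp had RXRα at 1.53 times the input.

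Mlxipl encodes ChREBP, the factor that turns on lipogenic genes in response to glucose. It lies at chr5:135582761-135614254 on the plus strand, and had 7 RXRα regions within 10 kb, as many as Thrsp. The largest highest-bin ratio, 136, was at -5769 bp, where 329 RXRα and 12 input reads gave a ratio of 27.4 (15.5 to 53.6), and where a RARα peak with a score of 23 co-localized. The region at -2441 bp had the highest summit, 146 reads, and 228 RXRα against 18 input reads, but no RARα peak of any score. The RARα peak of highest score, 137 at 34 bp, lay over a lower region at -105 bp with 65 RXRα against 9 input reads, a ratio of 7.22 (3.58 to 16.5).

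Inside Mlxipl, the region at 1319 bp had 274 RXRα against 12 input reads, a ratio of 22.8 (12.9 to 44.7), and co-localized with RARα peaks with scores of 28 and 21. The region at 2327 bp, with a highest-bin ratio of 102, had 162 RXRα and 9 input reads and a RARα score of 14, and held the DR1 printed above at 2283 bp. Beyond 10 kb, the region at 11943 bp had 154 RXRα and 13 input reads and a RARα peak with a score of 56. The ratio over the whole gene body, 4.15, was the highest of the 8 genes.

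Of the peaks and regions within 10 kb, RARα peaks of highest score were near the start. In all 5 genes with a filtered RARα peak within 10 kb, the highest of these peaks was within 1 kb of the start, and this was so in 66.6% of all genes with such a peak. Of the RXRα regions within 10 kb, the one of largest highest-bin ratio was within 1 kb in 3 of the 8 genes, Fasn, Acaca and Me1, a share near the 34.4% of all genes with a region. Counted over the gene bodies, filtered RARα peaks of higher score were found deep in Acaca and Acacb. Larger highest-bin RXRα ratios were found there in Acaca, Acly and Me1. Within 10 kb of Acly, Thrsp and Mlxipl, the highest RARα peak was within 1 kb and the highest RXRα region beyond it. Of the 7292 genes with both, 67.2% had the highest RARα peak within 1 kb and 36.5% the highest RXRα region. The share of these genes with the combination is not given here.

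Within 10 kb of the starts there were 64 RARα peaks, of which 13 had a score above 20, and 30 RXRα regions. Of the 30 regions, 8 overlapped a filtered RARα peak, 26.7%, compared with 39.4% of all RXRα regions near gene starts. A RARα peak of any score overlapped 21 of the 30 regions, 70.0%, compared with 65.6%. Of the 13 filtered RARα peaks 9 co-localized with an RXRα region, and 33.1% of all filtered RARα peaks near gene starts did so. Including the gene bodies, the numbers were 128 RARα peaks, 24 with a score above 20, 53 RXRα regions and 16 co-localized RARα peaks.

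**Figure D4:**
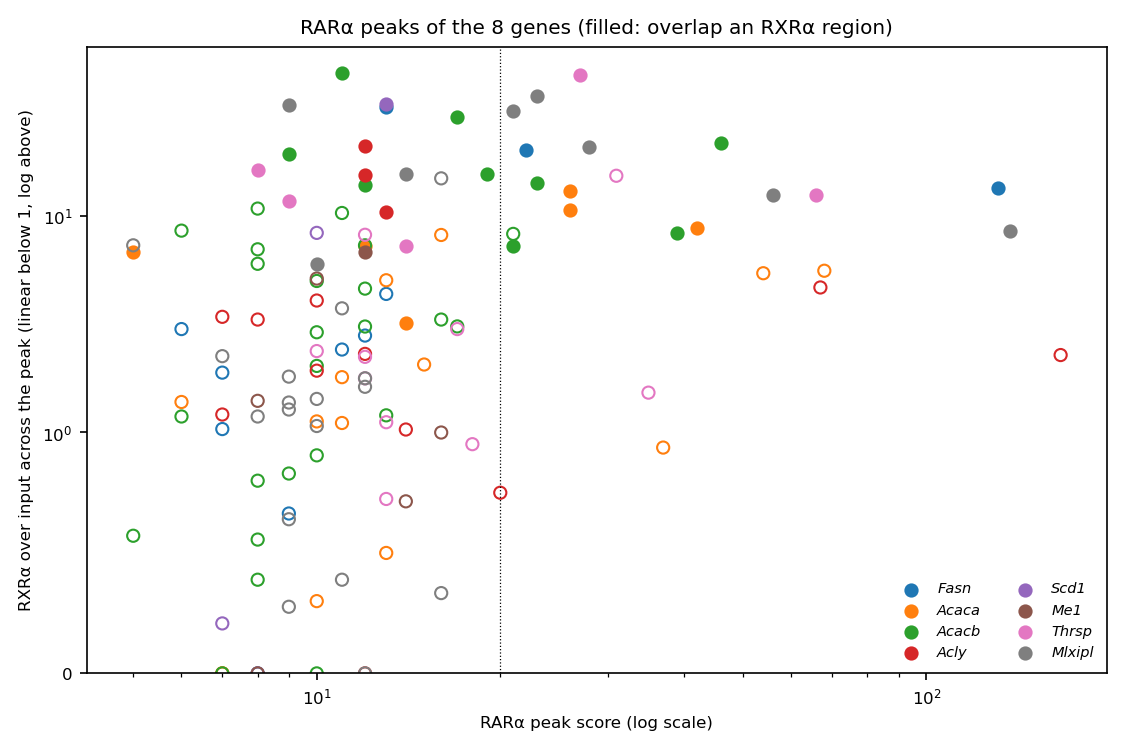
The 128 RARα peaks of the 8 genes, with the peak score on a log x axis and RXRα over input across the peak on the y axis, which is linear below 1 and logarithmic above. Filled circles co-localize with an RXRα region and the dotted line is the score of 20. The peak of highest score, 166 at Acly, has an RXRα ratio of 2.28, while peaks with scores under 20 at Fasn, Acacb and Scd1 reach ratios above 30.

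Exact direct repeats were rare in these regions. Within 100 bp on each side of the bin of highest ratio, 3 of the 53 RXRα regions held a DR1 to DR5, compared with 2.98% of all RXRα regions. A DR4 was found in 0.411% of all regions, a DR1 in 1.33% and a DR3 in 0.271%. With at most 1 mismatch allowed, 17 of the 53 regions held a repeat, 32.1%, and so did 23.4% of all RXRα regions. The single site AGGTCA was found in 25 of the 53 regions and in 32.7% of all regions. The E-box CACGTG was found in 4 of 53 and in 4.62%, and the NF-Y box CCAAT in 13 of 53 and in 25.7%. The carbohydrate response element was found in none of the 53 and in 0.0689% of all regions. These are counts of letters on both strands, AGGTCA being also part of many of the repeats, and do not show a bound site.

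The gene starts differed in CpG content. The observed over expected CpG ratio within 250 bp on each side of the start was 1.04 at Acaca and 0.980 at Fasn, and 0.252 at Acacb and 0.298 at Thrsp, with a median of 0.588 over all genes. Acacb and Fasn, with the highest RXRα ratios within 1 kb of the start, were far apart in CpG content.

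The wider lipogenic list holds 25 regulators, suppliers of substrate and enzymes of later steps. All 25 had a filtered RARα peak within 10 kb, 23 an RXRα region and 17 a co-localized pair, and their median RXRα ratio at the start was 4.90. The largest highest-bin ratios within 10 kb were 212 at Usf2, a factor that binds E-boxes, 134 at Gpam, which starts glycerolipid synthesis, and 110 at Dgat2, which makes triglyceride. Nr1h2, which encodes LXRβ, was among the genes without an RXRα region.

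The opposing pathway, mitochondrial fatty acid oxidation, had RARα at 17 of 17 genes, RXRα regions at 17 and co-localized pairs at 16, with a median ratio at the start of 7.77. Its largest highest-bin ratios were 168 at Etfdh, 131 at Cpt1a, the enzyme that malonyl-CoA inhibits, and 130 at Acadm. Cholesterol synthesis, of which 17 of 19 listed symbols were in the annotation, had RARα at 17 genes, RXRα regions at 11 and co-localized pairs at 9, with a median ratio of 2.98. Highest-bin ratios there included 101 at Sc5d and 68.0 at Fdft1, and Pmvk, Mvk, Dhcr7, Lss, Idi1 and Nsdhl had no region. The 8 lipogenic genes, with RARα at 5, differed from these lists in having genes without a filtered RARα peak, and this difference was not tested.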

How the data were processed

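RXRα, input and RARα chromatin from mouse liver was sequenced, with 1 library each. Per the labels and methods, the authors aligned reads with Bowtie (CASAVA 1.4 is also named in the submitters' processing notes) and called RARα peaks with MACS. The deposited RXRα and input files hold a linear signal, whole-number coverage by extended reads in 32 bp bins, 5 bins per read, with a bandwidth of 140 in the header. The scaling behind the near-identical totals of 9999939 and 9999292 reads is not given in the sources used here. The deposited RARα list gives a score per peak and a false discovery rate in percent (at most 4.75%, not used as a filter). The study's methods name mm10 for alignment and mm9 for annotation. The file headers name mm9, so NCBI37/mm9 sequence and GENCODE M1 genes, without the mitochondrial genes, were used.

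Tracks were scaled to the same mean, and RXRα bins of at least 20 times the larger of local and mean input were joined within 200 bp. RARα peaks were kept above a score of 20. Both were assigned within 10 kb of the 5′ end of a gene, and also over the gene body, and co-localized at 25% overlap. Ratios came from reads in fixed windows with exact intervals. Regions depend on the input of single bins, so that 20 further RXRα maxima of these genes, with ratios of 2.07 to 7.78 within 500 bp on each side, were left out. All 8 genes are named, with the RARα peak of highest score, the RXRα region of highest ratio and the co-localized pair of highest ratio of each. In the other lists the 3 genes of highest ratio and those without a region are named. Some items that this rule or the motif search covers are not reported here. The genes and lists were chosen with earlier results of these data known. Region calling and co-localization were tested on simulated data, and the motif search was not. Python 3.11.15, numpy 2.4.6, pandas 2.3.3 and scipy 1.17.1 were used.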

Additional observations from a re-analysis of the deposited data

How the results depend on the processing

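The number of lipogenic genes with an RXRα region was 8 as given and 6 to 8 under the alternatives tried. Acaca and Me1 were lost at 30 times the input, when 27.9% of all genes had a region. At 5 times the input all 8 had one, and so did 86.7% of all genes. The RARα threshold decided most. The number of genes with a RARα peak was 5 as given and 8 with a score above 10 (62.9% of all genes). It was 8 with no score threshold (67.3%) and 3 with a score above 100 (4.86%). The number with a co-localized pair was 4 as given, and 8, 8 and 2 under the same settings (29.7%, 31.2% and 2.4% of all genes). The RXRα rule changed the pairs less. Acly gained a pair, giving 5 genes, at 5 times the input (47.7% of all genes) and at 10 times (38.9%). It also did so with the genome mean input alone (36.2%). At 30 times the input 3 genes had a pair (14.9%). The pooled RXRα ratio at the starts was 7.64 as given, 9.62 within 250 bp, 4.52 within 10 kb and 4.84 with 1 added to both signals. Allowing 1 mismatch in the direct repeats, a setting added after the data had been seen, gave 17 regions instead of 3, when 23.4% of all RXRα regions held one. The pooled ratio stayed above input under each alternative. At single starts, Me1 went from 4.18 to 15.4 and Acaca from 3.28 to 9.33 within 250 bp. Within 10 kb, Acacb went from 18.7 to 5.06, Fasn from 14.9 to 4.70 and Acaca to 1.11. This value of Acaca came from 90 RXRα and 81 input reads. Depth limits the values with few input reads, such as 4 reads at Acacb 1280 bp and 3 at the start of Acaca. No paired analysis was possible because each antibody has 1 library, and no replicate could be left out for the same reason.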
